A study of Mus musculus with 5 samples.

Results

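The 10 genes described here are inhibitors of the cell cycle and genes of the p53 pathway. They are the inhibitors Cdkn2a, Cdkn2b, Cdkn2c, Cdkn1a and Cdkn1b, the tumour suppressor Trp53, its negative regulator Mdm2, and the p53 targets Ccng1, Bbc3 and Bax. They were chosen by name, with earlier results of these data known, so the shares over all genes given beside them are a description only. They make up 10 of the 28001 features counted in each library, and all 10 passed the filter on low counts in every comparison. Their levels are given for sarcoma cells, for the stroma within the sarcomas and for muscle cells.

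Messenger RNA was counted in single cells of the Hic1 lineage, sorted by fluorescence, in 5 libraries prepared from C57BL/6J mice with the 10x Genomics 3′ v2 chemistry. Hic1 marks mesenchymal progenitors, and in every animal both Hic1 alleles carry CreERT2, a Cre recombinase that tamoxifen activates and that turns on the red reporter tdTomato. The 4 sarcoma libraries held cells of epithelioid sarcomas at endpoint with the genotype Hic1CreERT2/CreERT2;Rosa26LSLtdTomato/LSLtdTomato;Smarcb1FL/FL, taken from the shoulder (sarcoma 1), the head (sarcoma 2), the head/ear (sarcoma 3) and the hip (sarcoma 4). The 1 muscle library held quiescent mesenchymal progenitors of hindlimb muscle with the genotype Hic1CreERT2/CreERT2;Rosa26LSLtdTomato/+. Tamoxifen (2.5 mg in 100 µL) was given on 5 days to animals 8 weeks old, followed by 10 days of washout. Tumour state, Smarcb1 alleles, reporter dose and body site differ together between the sarcoma and muscle groups and cannot be told apart. The labels do not say whether the sarcomas came from separate animals or which part of Smarcb1 is floxed. The p-values therefore measure the spread between these libraries. It may be technical, and tumour site also differs between the sarcomas. Against muscle, with 1 library, the spread comes from the sarcoma libraries only.

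The cell cycle is held back by small proteins that bind cyclin-dependent kinases. The INK4 proteins, encoded by Cdkn2a, Cdkn2b and Cdkn2c, bind CDK4 and CDK6 and so keep the RB protein active, while the CIP/KIP proteins, encoded by Cdkn1a (p21) and Cdkn1b (p27), act mainly on the cyclin E and cyclin A kinases. Cdkn2a encodes a second protein, p19Arf, from its own first exon. This protein binds the ubiquitin ligase MDM2, which otherwise marks p53 for degradation. Stabilised p53 activates Cdkn1a, Mdm2 itself, Ccng1, Bbc3 (PUMA) and Bax, the last of which permeabilises mitochondria in apoptosis. Loss of SMARCB1, which belongs to the SWI/SNF chromatin remodellers, defines epithelioid sarcoma and rhabdoid tumours, and human rhabdoid cells in which SMARCB1 is restored switch on p16INK4a.

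The start regions of the genes are shown because p53 acts on the targets through sites in their DNA and because the separate starts of Cdkn2a produce proteins of different pathways. Sequences are RefSeq promoter windows of build GRCm38.p6, 250 bases before and 50 bases after a transcription start, written 5′ to 3′ on the gene's strand. All 10 genes matched, with 15 windows in all. In the first 4 windows the capitals mark the p53 half-site, a motif that reads the same on both strands.
Cdkn1a, chr17:29090729-29091028, plus strand: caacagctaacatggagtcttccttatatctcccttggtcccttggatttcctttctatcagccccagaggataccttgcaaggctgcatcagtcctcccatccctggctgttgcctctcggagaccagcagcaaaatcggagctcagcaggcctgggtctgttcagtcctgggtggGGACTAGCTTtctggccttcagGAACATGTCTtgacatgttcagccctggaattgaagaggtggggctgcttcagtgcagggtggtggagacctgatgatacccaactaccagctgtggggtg
Mdm2, chr10:117710709-117711008, minus strand: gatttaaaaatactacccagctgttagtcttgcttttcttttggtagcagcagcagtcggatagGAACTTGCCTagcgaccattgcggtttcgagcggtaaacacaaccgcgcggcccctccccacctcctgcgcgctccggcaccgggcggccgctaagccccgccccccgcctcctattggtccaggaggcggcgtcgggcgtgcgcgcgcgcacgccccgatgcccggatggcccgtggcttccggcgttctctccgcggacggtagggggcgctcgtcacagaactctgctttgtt
Ccng1, chr11:40755237-40755536, minus strand: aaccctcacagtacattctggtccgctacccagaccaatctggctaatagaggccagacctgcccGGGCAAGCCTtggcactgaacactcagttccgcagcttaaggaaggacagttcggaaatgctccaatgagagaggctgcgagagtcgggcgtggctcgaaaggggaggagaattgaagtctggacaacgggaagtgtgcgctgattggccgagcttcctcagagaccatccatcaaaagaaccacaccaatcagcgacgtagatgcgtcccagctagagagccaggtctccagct
Bax, chr7:45466849-45467148, minus strand: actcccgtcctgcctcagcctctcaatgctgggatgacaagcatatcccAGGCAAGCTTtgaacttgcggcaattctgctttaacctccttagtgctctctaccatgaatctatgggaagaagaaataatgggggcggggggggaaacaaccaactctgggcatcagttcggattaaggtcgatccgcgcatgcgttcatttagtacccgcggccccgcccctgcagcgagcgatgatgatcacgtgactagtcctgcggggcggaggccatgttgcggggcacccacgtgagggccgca
In the windows of Cdkn2a the capitals mark the first 50 transcribed bases of each start.
Cdkn2a, p19Arf start, chr4:89294570-89294869, minus strand: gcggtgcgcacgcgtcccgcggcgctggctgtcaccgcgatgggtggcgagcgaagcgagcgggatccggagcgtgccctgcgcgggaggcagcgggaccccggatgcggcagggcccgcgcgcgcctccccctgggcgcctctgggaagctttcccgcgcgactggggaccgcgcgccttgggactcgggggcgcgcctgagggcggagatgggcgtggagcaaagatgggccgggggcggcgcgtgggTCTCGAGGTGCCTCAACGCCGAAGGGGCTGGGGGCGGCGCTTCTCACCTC
Cdkn2a, p16Ink4a start, chr4:89282143-89282442, minus strand: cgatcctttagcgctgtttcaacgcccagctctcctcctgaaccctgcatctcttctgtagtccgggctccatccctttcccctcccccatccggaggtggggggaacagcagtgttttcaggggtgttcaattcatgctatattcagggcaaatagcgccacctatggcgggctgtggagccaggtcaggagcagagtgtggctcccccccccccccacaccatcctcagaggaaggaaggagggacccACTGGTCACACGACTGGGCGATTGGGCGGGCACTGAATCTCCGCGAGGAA
The p53 half-site occurred in 2745 of 32851 RefSeq windows (8.36%) and in 5 of the 15 windows of these genes. It lay 73 and 51 bases before the upstream start of Cdkn1a, the one shown. The window of the downstream Cdkn1a start, chr17:29093519-29093818, held 0 half-sites. The site lay 186 bases before the start of Mdm2, 185 before that of Ccng1 and 201 before that of Bax. The fifth window was that of Trp53 (75 bases before the start). These matches describe letters in the DNA only, and a window without one says nothing about p53 binding elsewhere at that gene. The 3′ tags counted here fall in the part of Cdkn2a that both starts share, so p16Ink4a and p19Arf RNA cannot be told apart.

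After cells with under 500 detected genes or over 10% mitochondrial UMIs (unique molecular identifiers, which count RNA molecules) were removed, 7433, 8206, 6949 and 6824 cells remained in sarcomas 1 to 4 and 8107 in muscle. Sarcoma cells were those with at least 2 UMIs of Gchfr and none of Smarcb1, and stroma those with at least 4 UMIs summed over Ddah1, Wisp1, C1qtnf7 and Fbn2, both gates being given by the rule and not a finding. This gave 5142, 7423, 2851 and 3265 sarcoma cells in sarcomas 1 to 4, and 184, 156, 1732 and 79 stroma cells. Cells that met both gates (24 to 91 a library) were left out, and 603 to 3389 cells a library met neither. The median depth was 23138 to 32516 UMIs per sarcoma cell, 20698 to 34496 per stroma cell and 7566 per muscle cell. Any pair of libraries shared 12 to 22 cell barcodes.

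Smarcb1 was counted at 2.48, 3.02, 20.5 and 0.484 CPM (UMIs per 1000000 UMIs) in the whole libraries of sarcomas 1 to 4, against 88.7 CPM in muscle. All 4 sarcoma libraries were below muscle, in the direction of their labels. Within the stroma the level was 45.1, 66.4, 59.8 and 9.75 CPM, so the stroma gate of sarcoma 4 stood apart. That gate also held the lowest Pdgfra, a mesenchymal progenitor marker (41.1 CPM, against 151 to 347 CPM in the stroma of sarcomas 1 to 3), and a summed level of 6 fibroblast markers of 3623 CPM, against 27325 to 44350 CPM in the other stroma and 67442 CPM in muscle. Muscle cells held 415 CPM of Pdgfra. The reporter tdTomato was counted in every class, at 698, 342, 1205 and 267 CPM in sarcoma cells of sarcomas 1 to 4, at 1233, 704, 1763 and 368 CPM in stroma and at 1138 CPM in muscle. At least 4 UMIs of 4 endothelial genes were held by 2052, 2983, 61 and 1 sarcoma cells of sarcomas 1 to 4, so the make-up of this class differed between libraries. Fold changes of the 10 genes between sarcoma cells and stroma are therefore given with and without sarcoma 4, and with a stroma gate that also asks for 1 UMI of Smarcb1, which was chosen after the data were seen and leaves 105, 119, 1198 and 13 cells.

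In sarcoma cells the genes of the set stood above muscle. Of the 10 genes, 9 had a higher CPM in the sarcoma cells of all 4 libraries than in muscle cells, as did 20.3% of all genes tested, and Cdkn1b lay on both sides. The median log2 fold change was 1.61 over the 10 genes and 0.19 over all 17741 genes tested. With 1 muscle library, none of the 10 passed edgeR's quasi-likelihood test after Benjamini-Hochberg adjustment, and neither did any other gene (0.0% called). At an unadjusted p under 0.05 edgeR called 2321 genes, 4.89% of all genes as higher and 4 of the set, all higher. After adjustment DESeq2 called 1933 genes (944 higher and 989 lower) and limma-voom 199 (3 higher and 196 lower). DESeq2 called 5.48% of genes higher, among them Cdkn2a, Cdkn2b, Trp53 and Bbc3. Scaling by library size in place of TMM moved the median of all genes to -0.01, and the fold changes against muscle carry that shift.

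**Figure D1:**
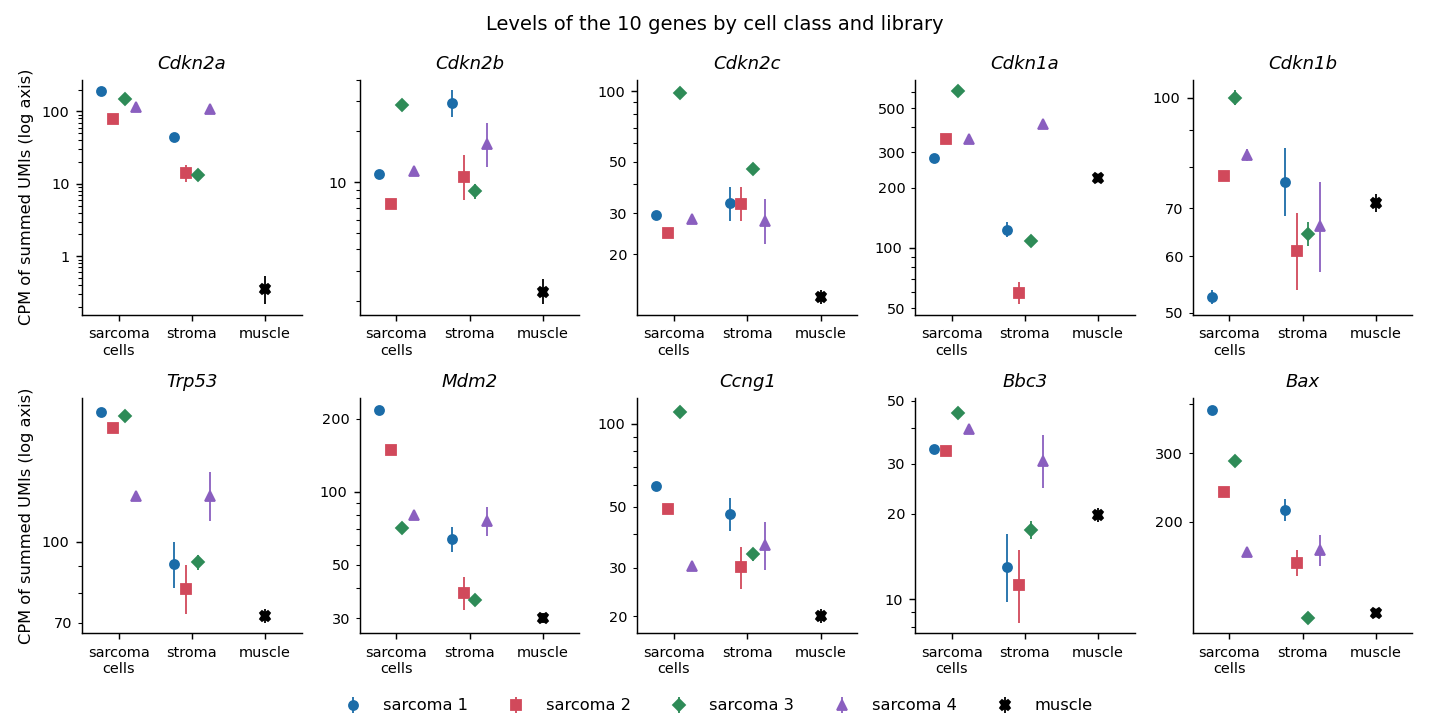
Level of each of the 10 genes as CPM of the UMIs summed over each cell class, on log axes, with sarcoma cells left, stroma in the middle and muscle right. Points are libraries and bars are exact 95% Poisson intervals, which cover counting error only. Cdkn2a reached 193 CPM in the sarcoma cells of sarcoma 1, against 0.348 CPM in muscle, and the stroma of sarcoma 4 lay with the sarcoma cells.

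Cdkn2a (ENSMUSG00000044303, chromosome 4, 89274471 to 89294653, minus strand of mm10) had the widest difference from muscle of the set. It was counted at 193, 78.5, 151 and 115 CPM in the sarcoma cells of sarcomas 1 to 4, at 44.0, 14.0, 13.1 and 109 CPM in their stroma, and at 0.348 CPM in muscle cells, where 22 UMIs were found (95% interval 0.218 to 0.526 CPM). All 8 sarcoma sums lay above muscle, and sarcoma cells did so by 555-, 226-, 433- and 331-fold in sarcomas 1 to 4. The fitted log2 fold change over muscle was 8.79 ± 0.94 (SE, edgeR adjusted p = 0.133) for sarcoma cells and 7.03 ± 1.98 (edgeR adjusted p = 0.448) for stroma. Muscle cells that met the stroma gate, 175 in number, had 3.30 CPM.

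Within the sarcomas, Cdkn2a averaged 134 ± 49.0 CPM in sarcoma cells and 45.1 ± 45.2 CPM in stroma (SD, n = 4 each). The fold of sarcoma cells over stroma was 4.39, 5.59 and 11.5 in sarcomas 1 to 3 and 1.05 in sarcoma 4, so the separation seen in the first 3 libraries was missing in the last. Over all 4 libraries the log2 fold change was 2.10 ± 0.58 (edgeR adjusted p = 0.132). It was 2.70 ± 0.31 without sarcoma 4 (edgeR adjusted p = 0.0269) and 2.38 ± 0.39 with the Smarcb1-positive stroma gate (edgeR adjusted p = 0.0327). In that narrower stroma Cdkn2a still had 31.7, 16.8, 12.9 and 62.4 CPM.

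RNA released from broken sarcoma cells can give UMIs in stroma droplets, so genes that mark the sarcoma cells were read beside Cdkn2a. The stroma level of Cdkn2a was 22.8%, 17.9%, 8.68% and 94.9% of the sarcoma-cell level in sarcomas 1 to 4. The same share was 24.4%, 7.87%, 9.15% and 123% for Nefl, 11.8%, 4.43%, 8.69% and 61.9% for Pcsk1, 16.1%, 11.3%, 7.74% and 32.3% for March11 and 15.4%, 5.92%, 8.72% and 113% for Pla2g7. The stroma share of Cdkn2a thus lay among those of the 4 genes in sarcomas 1, 3 and 4 and above all 4 in sarcoma 2. This depended on the gate. In the Smarcb1-positive stroma the share of Cdkn2a was 16.4%, 21.4%, 8.56% and 54.2% in sarcomas 1 to 4. There it lay above all 4 genes in sarcomas 1 and 2, where the highest were Pcsk1 (13.9%) and March11 (13.9%). In sarcomas 3 and 4 it lay among them. Spp1, the fifth gene of that list, was higher in stroma and gave no such reading. The part of free RNA in the stroma level of Cdkn2a was not tested.

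Seen per cell, Cdkn2a was a gene of many sarcoma cells and of very few muscle cells. After each cell was thinned to 5000 UMIs, which left out 1072 sarcoma cells, 10 stroma cells and 2326 muscle cells for lower depth, 52.3%, 26.3%, 43.6% and 38.0% of sarcoma cells held a Cdkn2a UMI in sarcomas 1 to 4. The share was 10.4%, 5.16%, 3.83% and 30.4% in stroma and 0.156% in muscle (9 of 5781 cells). No muscle cell held more than 1 Cdkn2a UMI at that depth. Unthinned, the shares averaged 76.1 ± 13.6% in sarcoma cells and 30.7 ± 28.0% in stroma (SD, n = 4 each), and 17 of 8107 muscle cells (0.210%) held a UMI. The variance of Cdkn2a UMIs over cells, divided by their mean, was 1.66, 1.60, 1.94 and 1.31 in the thinned sarcoma cells of sarcomas 1 to 4, where counting error alone gives 1.

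Cdkn2b (ENSMUSG00000073802, chromosome 4, 89306299 to 89311039, minus strand), the neighbour of Cdkn2a that encodes p15Ink4b, was counted at a low level and followed another order. Its level was 11.2, 7.40, 28.5 and 11.7 CPM in sarcoma cells of sarcomas 1 to 4, 29.1, 10.8, 8.82 and 16.7 CPM in stroma, and 2.26 CPM in muscle. Every sarcoma sum lay above muscle, while sarcoma cells were below stroma in sarcomas 1, 2 and 4 and 3.23-fold above it in sarcoma 3. The means of 14.7 ± 9.40 CPM in sarcoma cells and 16.3 ± 9.13 CPM in stroma (SD, n = 4 each) overlapped, with a log2 fold change of -0.20 ± 0.52 (edgeR adjusted p = 0.833). Against muscle the log2 fold change was 2.84 ± 0.85 for sarcoma cells (edgeR adjusted p = 0.290) and 2.91 ± 0.89 for stroma (edgeR adjusted p = 0.453). Muscle cells of the stroma gate had 13.2 CPM, inside the range of the sarcoma stroma.

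Cdkn2c (ENSMUSG00000028551, chromosome 4, 109660876 to 109667189, minus strand), which encodes p18Ink4c, was high in 1 sarcoma. Sarcoma cells had 29.4, 24.6, 98.7 and 28.3 CPM in sarcomas 1 to 4, stroma had 33.1, 33.0, 46.5 and 27.9 CPM, and muscle had 13.1 CPM. Sarcoma 3 was the high library in both classes, and the other 3 libraries had sarcoma cells and stroma at about the same level. Sarcoma cells exceeded stroma by 2.12-fold in sarcoma 3, and the folds in sarcomas 1, 2 and 4 were 0.888, 0.744 and 1.02. The fit over the 4 libraries gave 0.14 ± 0.25 on the log2 scale (edgeR adjusted p = 0.751), and -0.14 without sarcoma 3. In thinned cells of sarcoma 3, 33.2% of sarcoma cells, 20% of stroma cells and, in the muscle library, 5.90% of muscle cells held a Cdkn2c UMI.

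Cdkn1a (ENSMUSG00000023067, chromosome 17, 29090976 to 29100727, plus strand), which encodes p21, the kinase inhibitor that p53 induces, was well counted in every class and lowest in the stroma of sarcomas 1 to 3. Sarcoma cells had 282, 348, 607 and 351 CPM in sarcomas 1 to 4, stroma had 123, 59.4, 109 and 415 CPM, and muscle had 223 CPM. Sarcoma cells were thus above muscle in all 4 libraries, and stroma was below muscle in 3 and above it in sarcoma 4. The log2 fold change was 1.00 ± 0.44 for sarcoma cells over muscle (edgeR adjusted p = 0.434) and -0.30 ± 1.02 for stroma over muscle, or -1.10 ± 0.41 without sarcoma 4 (edgeR adjusted p = 0.250). Sarcoma cells exceeded stroma by 2.28-, 5.86- and 5.59-fold in sarcomas 1 to 3, with a fold of 0.846 in sarcoma 4. The log2 fold change was 1.53 ± 0.52 over 4 libraries (edgeR adjusted p = 0.163) and 2.06 ± 0.34 without sarcoma 4 (edgeR adjusted p = 0.0436). The 13 Smarcb1-positive stroma cells of sarcoma 4 had 733 CPM, above the full gate of that library.

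Cdkn1a also had the highest variance over mean of the 10 genes. This measure rises with the level of a gene at the same relative variation, so it does not rank the genes by relative variation. Its variance over mean in thinned sarcoma cells was 3.28, 3.64, 4.59 and 6.75 in sarcomas 1 to 4, against 3.82, 3.71, 2.84 and 7.27 in stroma and 3.79 in muscle. A Cdkn1a UMI was found in 56.5%, 60.04%, 73.1% and 46.0% of thinned sarcoma cells, in 24.2%, 14.8%, 26.8% and 44.3% of stroma cells and in 41.7% of muscle cells. Unthinned, 82.4 ± 7.25% of sarcoma cells (SD, n = 4) and 45.4% of muscle cells held one. Among sarcoma cells, sarcoma 4 had both the smallest share with a UMI and the highest variance over mean. At least 10 Cdkn1a UMIs were held by 1.13%, 1.65%, 6.58% and 4.09% of thinned sarcoma cells in sarcomas 1 to 4 and by 1.00% of muscle cells. Genes of a dissociation response moved with these classes: the summed level of 15 such genes was 5548, 4906, 3958 and 5346 CPM in sarcoma cells of sarcomas 1 to 4, 10337, 8020, 10622 and 5457 CPM in stroma and 22861 CPM in muscle, with UMIs of all 15 genes in each sum. Their part in the levels of Cdkn1a was not tested.

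**Figure D2:**
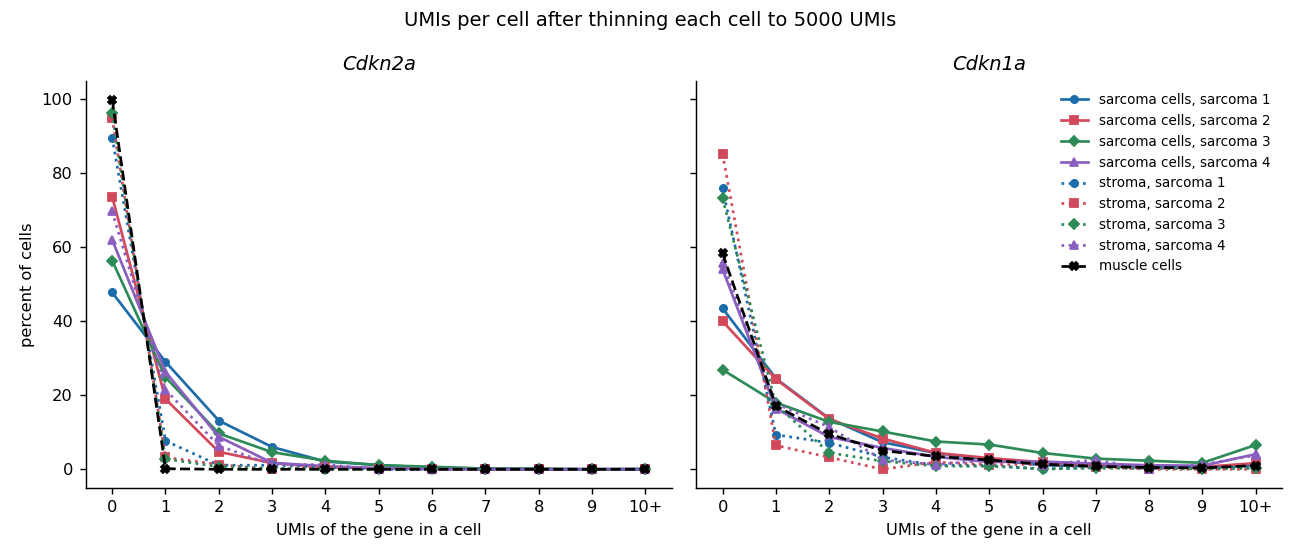
Percent of cells (vertical axis) with each number of UMIs (horizontal axis) of Cdkn2a, left, and Cdkn1a, right, after each cell was thinned to 5000 UMIs. Solid lines are sarcoma cells, dotted lines stroma and the dashed line muscle cells. A Cdkn2a UMI was found in 0.156% of muscle cells and a Cdkn1a UMI in 41.7%, and the Cdkn1a curve of sarcoma 3 ends with 6.58% of cells at 10 or more.

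Cdkn1b (ENSMUSG00000003031, chromosome 6, 134920401 to 134925513, plus strand), which encodes p27, differed little. It was counted at 52.6, 77.7, 100.0 and 83.2 CPM in sarcoma cells of sarcomas 1 to 4, at 76.3, 61.1, 64.5 and 66.2 CPM in stroma and at 71.3 CPM in muscle. Sarcoma cells of sarcoma 1 were below both stroma and muscle, and those of the other 3 libraries were above both. The log2 fold changes of 0.32 ± 0.36 for sarcoma cells over muscle (edgeR adjusted p = 0.714) and 0.21 ± 0.21 for sarcoma cells over stroma (edgeR adjusted p = 0.551) were within about 1 SE of 0.

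Trp53 (ENSMUSG00000059552, chromosome 11, 69580359 to 69591873, plus strand), the gene of p53 itself, was counted at 177, 165, 173 and 122 CPM in sarcoma cells of sarcomas 1 to 4, at 90.5, 81.2, 91.3 and 122 CPM in stroma and at 72.2 CPM in muscle. The level was steady, with 159 ± 25.3 CPM in sarcoma cells (SD, n = 4) and a ratio of the highest to the lowest library of 1.45. Sarcoma cells exceeded stroma by 1.96-, 2.03- and 1.90-fold in sarcomas 1 to 3, and both classes of sarcoma 4 had the same level. The log2 fold change over stroma was 0.74 ± 0.19 (edgeR adjusted p = 0.123). It was 0.96 ± 0.12 without sarcoma 4 (edgeR adjusted p = 0.0308) and 0.98 ± 0.13 with the Smarcb1-positive stroma gate (edgeR adjusted p = 0.0212). Over muscle it was 1.35 ± 0.37 (edgeR adjusted p = 0.264, DESeq2 adjusted p = 0.0086). A Trp53 UMI was found in 56.8%, 52.5%, 55.7% and 45.9% of thinned sarcoma cells, in 33.5%, 27.1%, 35.8% and 38.0% of stroma cells and in 29.9% of muscle cells. The counts say nothing of mutations in Trp53 or of the amount of p53 protein.

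Mdm2 (ENSMUSG00000020184, chromosome 10, 117688875 to 117710758, minus strand) had 217, 149, 70.9 and 80.2 CPM in sarcoma cells of sarcomas 1 to 4, 63.6, 38.1, 35.8 and 75.6 CPM in stroma and 30.2 CPM in muscle. All 8 sarcoma sums were above muscle, and sarcomas 1 and 2 were the high libraries among sarcoma cells, with a spread of 3.06-fold from lowest to highest. Sarcoma cells exceeded stroma in all 4 libraries, by 3.41-, 3.91-, 1.98- and 1.06-fold, and the log2 fold change was 1.21 ± 0.35 (edgeR adjusted p = 0.135) or 1.56 ± 0.28 without sarcoma 4 (edgeR adjusted p = 0.0480). Over muscle it was 2.34 ± 0.95 (edgeR adjusted p = 0.404).

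Ccng1 (ENSMUSG00000020326, chromosome 11, 40748552 to 40755311, minus strand), which encodes cyclin G1, had 59.5, 49.1, 111 and 30.6 CPM in sarcoma cells of sarcomas 1 to 4, 47.0, 30.2, 33.7 and 36.2 CPM in stroma and 20.1 CPM in muscle. Sarcoma 3 was again the high library among sarcoma cells and sarcoma 4 the low one. The classes overlapped, and the log2 fold change over stroma was 0.64 ± 0.30 (edgeR adjusted p = 0.239). Against muscle it was 1.79 ± 0.70 for sarcoma cells (edgeR adjusted p = 0.389).

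Bbc3 (ENSMUSG00000002083, chromosome 7, 16308393 to 16318205, plus strand), which encodes the BH3-only cell-death protein PUMA, had 33.8, 33.3, 45.2 and 39.6 CPM in sarcoma cells of sarcomas 1 to 4, 13.0, 11.2, 17.5 and 30.6 CPM in stroma and 19.9 CPM in muscle. The sarcoma cells varied by no more than 1.36-fold, the narrowest range of the 10 genes, and did not overlap the stroma. Stroma was below muscle in sarcomas 1 to 3. The log2 fold change over stroma was 1.18 ± 0.21 (edgeR adjusted p = 0.0851), and it passed without sarcoma 4 (1.42 ± 0.14, edgeR adjusted p = 0.0226), with the Smarcb1-positive gate (1.42 ± 0.14, edgeR adjusted p = 0.0123) and in limma-voom over all 4 libraries (adjusted p = 0.0330). Over muscle the log2 fold change was 1.13 ± 0.29 (edgeR adjusted p = 0.247, DESeq2 adjusted p = 0.000212).

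Bax (ENSMUSG00000003873, chromosome 7, 45461697 to 45466898, minus strand) had 386, 239, 287 and 167 CPM in sarcoma cells of sarcomas 1 to 4, 215, 157, 113 and 169 CPM in stroma and 116 CPM in muscle. Sarcoma cells were above stroma in sarcomas 1 to 3, by 1.80-, 1.52- and 2.54-fold, and at the same level in sarcoma 4. Sarcoma cells averaged 269.8 ± 92.0 CPM and stroma 163 ± 41.7 CPM (SD, n = 4 each), with a log2 fold change of 0.71 ± 0.21 (edgeR adjusted p = 0.139) that did not pass without sarcoma 4 either (0.92 ± 0.17, edgeR adjusted p = 0.0505).

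Sarcoma cells and stroma of the same libraries were compared with the library as a block, since both classes come from the same tumour and droplet run. Of the 10 genes, 3 (Cdkn2a, Mdm2 and Bbc3) were higher in the sarcoma cells of all 4 libraries, against 18.3% of the 14563 genes tested. In sarcoma 4 the 95% counting intervals of the stroma (97.6 to 122 CPM for Cdkn2a and 65.8 to 86.3 CPM for Mdm2) included the sarcoma-cell levels, so those 2 genes were not distinguishable there. None of the 10 passed edgeR's adjusted threshold, and 6 were higher at an unadjusted p under 0.05, as were 14.1% of all genes. DESeq2, which called 8.73% of genes higher, called Cdkn2a, Cdkn1a, Trp53, Mdm2, Bbc3 and Bax, and limma-voom (2.33% higher) called Bbc3. Over all genes edgeR called 29 higher (0.199%) and 129 lower (0.886%) in sarcoma cells. The median log2 fold change was 0.72 over the 10 genes and 0.07 over all genes tested.

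The calls depended on which libraries entered. Without sarcoma 4, 5 of the 10 genes (Cdkn2a, Cdkn1a, Trp53, Mdm2 and Bbc3) passed edgeR's adjusted test as higher in sarcoma cells, where 3.97% of 14905 genes did. With the Smarcb1-positive stroma gate and all 4 libraries 3 of 10 passed (Cdkn2a, Trp53 and Bbc3), where 3.24% of 14145 genes did. The 5 genes that did not pass without sarcoma 4 had log2 fold changes there of -0.10 for Cdkn2b, 0.15 for Cdkn2c, 0.14 for Cdkn1b, 0.91 for Ccng1 and 0.92 for Bax. With the Smarcb1-positive gate those that did not pass had -0.51 for Cdkn2b, 0.03 for Cdkn2c, 1.48 for Cdkn1a, 0.34 for Cdkn1b, 1.25 for Mdm2, 0.67 for Ccng1 and 0.68 for Bax. Genes of the pathway lists named further on are given over all 4 libraries. Leaving out sarcoma 1, 2 or 3 gave 0, 0 and 2 calls over all genes, and leaving out sarcoma 4 gave 1560. Other cell types moved with the classes: the summed level of 6 mural markers was 10.4, 9.95, 29.3 and 8.97 CPM in sarcoma cells of sarcomas 1 to 4, 314, 83.1, 191 and 26.8 CPM in stroma and 641 CPM in muscle, with Higd1b and Myh11 at 0 in the stroma of sarcoma 4. Summed haematopoietic markers stayed between 0.758 and 83.8 CPM in all 9 sums. The part of mural cells in the differences was not tested.

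**Figure D3:**
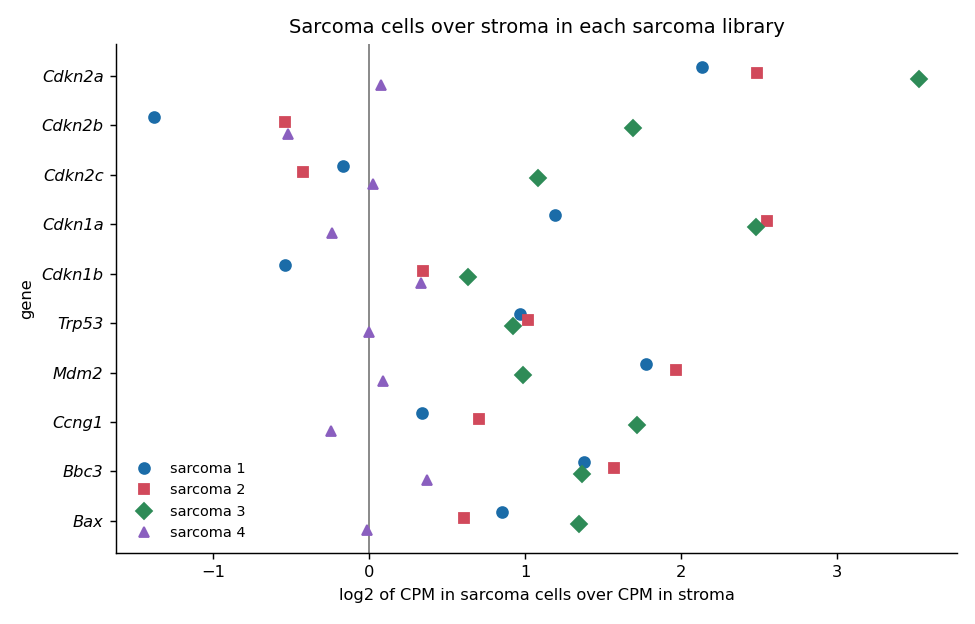
Level in sarcoma cells over level in stroma of the same library, as log2 of the ratio of CPM values (horizontal axis), for each of the 10 genes (vertical axis). Points are the 4 sarcoma libraries and the vertical line marks equal levels. Sarcoma 4 lies within 0.6 of the line for every gene, while Cdkn2a, Cdkn1a, Trp53, Mdm2, Ccng1, Bbc3 and Bax lie to the right in sarcomas 1 to 3.

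Stroma within the sarcomas was also set against muscle. Of the 10 genes, 6 were higher in the stroma of all 4 libraries than in muscle, against 18.3% of the 12849 genes tested. They were the 3 INK4 genes and Trp53, Mdm2 and Ccng1. No gene of any kind passed edgeR's adjusted test (0.0% called, 1220 at an unadjusted p under 0.05, with 4 of the 10 higher, against 3.57% of all genes), whereas DESeq2 called 557, 2.76% of genes as higher and among them Cdkn2a, Cdkn2b and Cdkn2c, and limma-voom called 0. The median log2 fold change was 0.72 over the 10 genes and 0.03 over all genes. Without sarcoma 4 edgeR called 168 genes (1.11%) but none of the 10, with Cdkn2a at 6.16 ± 1.13 (edgeR adjusted p = 0.0798) and Cdkn2c at 1.63 (edgeR adjusted p = 0.0909).

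Cycling sarcoma cells differed from non-cycling ones in 4 of the 10 genes. Cdkn2c and Trp53 rose, and Cdkn2b and Bbc3 fell, while Cdkn2a, Cdkn1a, Cdkn1b, Mdm2, Ccng1 and Bax did not pass. Over all 13528 genes tested edgeR called 10.7% higher and 10.7% lower, so 2 of 10 in each direction stands against about 1 in 10 genes. Cells were classed after thinning to 5000 UMIs, as cycling with at least 3 UMIs of Mki67, Top2a, Cdk1, Ccnb1, Ccna2 and Ube2c together and as non-cycling with none. There were 746, 632, 109 and 172 cycling cells and 3306, 4562, 2229 and 2165 non-cycling cells in sarcomas 1 to 4. Cycling cells were deeper, with median UMIs of 33773 to 40460, against 22579 to 31537 in non-cycling cells.

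Cdkn2c was counted at 62.9, 66.9, 121 and 85.4 CPM in cycling cells of sarcomas 1 to 4, against 21.1, 17.5, 97.8 and 24.7 CPM in non-cycling cells. It was higher in all 4 libraries, and least so in sarcoma 3, where the non-cycling level was already high (log2 fold change 1.35 ± 0.25, edgeR adjusted p = 0.0131). Trp53 had 211, 213, 229 and 169 CPM in cycling cells, against 165, 157, 167 and 114 CPM in non-cycling cells, again with all 4 libraries higher (0.39 ± 0.07, edgeR adjusted p = 0.0144). Cdkn2b had 4.40, 5.19, 7.38 and 8.85 CPM in cycling cells, against 13.2, 7.74, 31.1 and 11.9 CPM in non-cycling cells, and was lower in all 4 (-1.19 ± 0.26, edgeR adjusted p = 0.0224). Bbc3 had 25.4, 27.1, 34.6 and 38.1 CPM in cycling cells, against 36.6, 34.5, 46.6 and 41.5 CPM in non-cycling cells, also lower in all 4 (-0.43 ± 0.08, edgeR adjusted p = 0.0144). Each call was lost when some libraries were left out: all 4 without sarcoma 1, with edgeR adjusted p between 0.0611 and 0.0978, Trp53 and Bbc3 without sarcoma 2 (0.0969 and 0.0755) and Cdkn2b without sarcoma 3 (0.0523). On sums of thinned cells Cdkn2b did not pass (-0.86, edgeR adjusted p = 0.103).

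The inhibitors Cdkn2a and Cdkn1a, unlike Cdkn2b, gave no common direction over the 4 libraries in cycling cells. Cdkn2a had 164, 85.3, 108 and 149.9 CPM in cycling cells of sarcomas 1 to 4, against 197, 76.9, 156 and 108 CPM in non-cycling cells, so it was lower in sarcomas 1 and 3 and higher in 2 and 4 (-0.11 ± 0.14, edgeR adjusted p = 0.609). Cdkn1a had 305, 478, 522 and 417 CPM in cycling cells, against 279, 336, 624 and 360 CPM in non-cycling cells, with sarcoma 3 alone lower (0.08 ± 0.13, edgeR adjusted p = 0.682). Per cell, after thinning to 5000 UMIs, 42.4 ± 8.62% of cycling cells held a Cdkn2a UMI and 63.7 ± 11.1% a Cdkn1a UMI (SD, n = 4 each). The shares in non-cycling cells were 39.5 ± 11.2% and 59.0 ± 10.5%. The part of free RNA and of doublets in these shares was not tested. Bax had 464, 303, 346 and 175 CPM in cycling cells, against 365, 228, 283 and 166 CPM in non-cycling cells, higher in all 4 libraries without passing the test (0.21 ± 0.11, edgeR adjusted p = 0.208). The dissociation-response genes summed to 4267, 3638, 2433 and 4253 CPM in cycling cells, against 5993, 5201, 4162 and 5523 CPM in non-cycling cells, and their part in these differences was not tested.

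**Figure D4:**
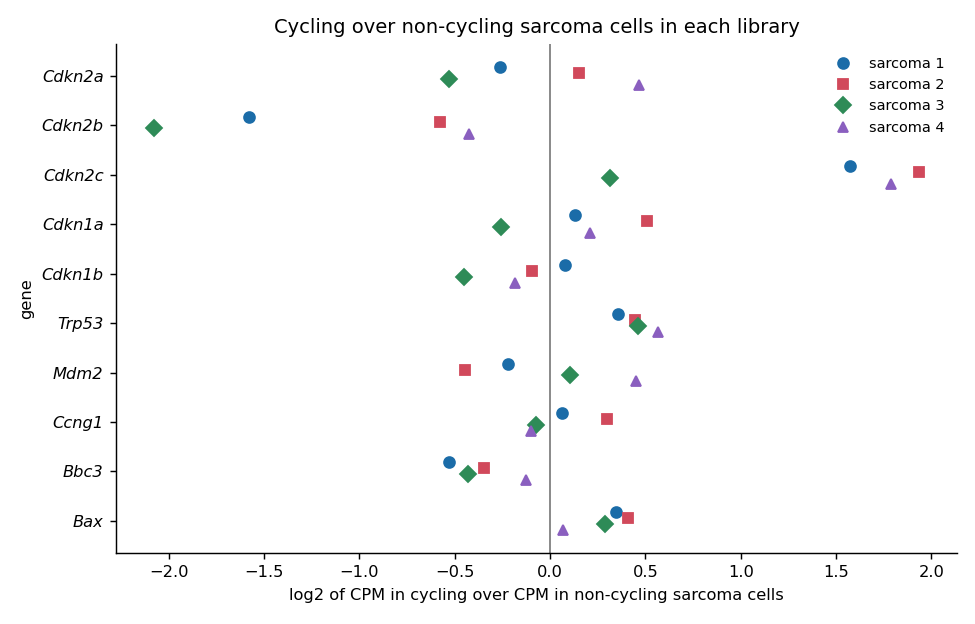
Level in cycling over level in non-cycling sarcoma cells, as log2 of the ratio of CPM values (horizontal axis), for each of the 10 genes (vertical axis). Points are the 4 sarcoma libraries and the vertical line marks equal levels. Cdkn2c and Trp53 lie right of the line and Cdkn2b and Bbc3 left of it in all 4 libraries, and Cdkn2a falls on both sides.

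The number of the genes detected in each cell was counted. It depends on the level of each gene and does not show that the genes occur together. In sarcoma cells thinned to 5000 UMIs the median number of the 10 genes detected was 4, 3, 4 and 3 in sarcomas 1 to 4, against 2, 2, 2 and 3 in stroma and 2 in muscle. Cells with 5 or more of the genes made up 30.5%, 19.1%, 39.2% and 15.7% of sarcoma cells, 7.69%, 3.23%, 4.23% and 8.86% of stroma cells and 1.52% of muscle cells. Sarcoma 3 had the largest share and sarcoma 4 the smallest among sarcoma cells.

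For each of the 45 pairs of genes an odds ratio of joint detection was computed within each library, a description with no test, since cells of a library are not replicates. In sarcoma cells 23 pairs had an odds ratio above 1 in all 4 libraries. In 1 pair, Cdkn1b with Mdm2, it was below 1 in all 4 (median 0.912, range 0.858 to 0.971). The median over the 45 pairs was 1.11. Pairs of other genes were not counted, so the share of pairs above 1 cannot be called particular to these genes. The strongest pair was Cdkn2a with its neighbour Cdkn2b, at a median of 1.98 (range 1.56 to 3.09). A Cdkn2b UMI was found in 7.07%, 5.44%, 19.97% and 6.08% of sarcoma cells with Cdkn2a in sarcomas 1 to 4, against 3.37%, 3.12%, 7.44% and 3.98% of those without it. The next pairs by median were Cdkn2b with Ccng1 (1.59, range 1.34 to 1.98), Cdkn1a with Mdm2 (1.46, range 1.17 to 1.54), Cdkn1a with Bbc3 (1.44, range 1.28 to 1.98), Cdkn1a with Ccng1 (1.42, range 1.29 to 1.68), Cdkn2a with Cdkn1a (1.42, range 1.13 to 1.62), Cdkn2b with Cdkn1a (1.41, range 1.20 to 2.28), Cdkn2c with Cdkn1b (1.40, range 1.20 to 1.48), Cdkn2a with Ccng1 (1.39, range 1.23 to 1.499) and Cdkn1a with Bax (1.35, range 1.23 to 1.49). Cdkn1a was in 6 of these 9 pairs. The pairs of Trp53 RNA with the other genes had medians between 0.95 and 1.12. At 2000 UMIs a cell, 16 pairs were above 1 and 2 below 1 in all 4 libraries. Cdkn2b with Ccng1 did not hold at that depth, with a median of 0.899 (range 0.552 to 1.97) and 2 libraries above 1. The other pairs named here as above 1 stayed above 1 in all 4 libraries. In stroma, with far fewer cells, 7 pairs were above 1 in all 4 libraries at 5000 UMIs and 13 at 2000 UMIs. With so few positive cells, the 0.5 added to each count can put a pair above 1 when no cell holds both genes. The stroma counts of pairs therefore cannot be read as joint detection.

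**Figure D5:**
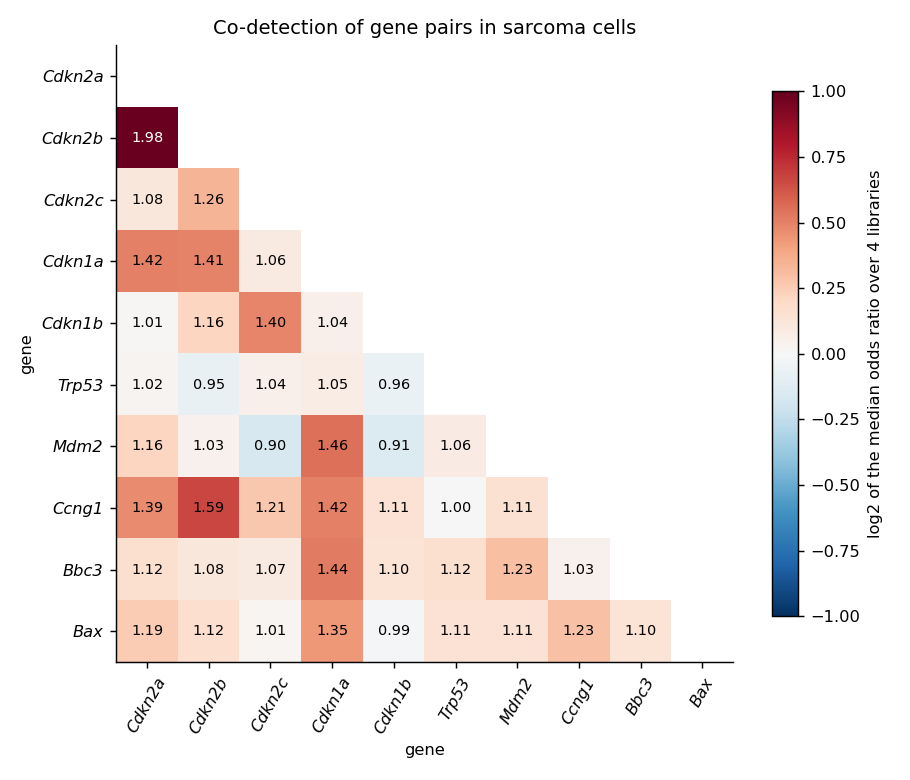
Odds ratio of joint detection for each pair of the 10 genes (both axes) in sarcoma cells thinned to 5000 UMIs, as the median over the 4 sarcoma libraries. The number in each square is the odds ratio and the colour its log2. The darkest square is Cdkn2a with Cdkn2b at 1.98, and Cdkn1a has warm squares with Mdm2, Ccng1, Bbc3 and Bax.

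Other genes of the pathways were read from lists. Among 20 further genes of the RB axis, 12 rose and 1 fell in cycling sarcoma cells, against 10.7% of all genes in each direction. None was called between sarcoma cells and stroma, where 7 were higher and 1 lower at an unadjusted p under 0.05, against 14.1% of all genes higher and 12.8% lower. Cdkn3 (log2 fold change 4.98), the inhibitor gene Cdkn2d (1.74), the E-type cyclin Ccne2 (3.67) and the F-box gene Skp2 (1.60) were among those that rose in cycling cells. The D-type cyclins went apart, with Ccnd1 higher (0.79) and Ccnd2 lower (-1.18, edgeR adjusted p = 0.0217). Ccnd1 was counted at 1067, 825, 649.6 and 29.95 CPM in sarcoma cells of sarcomas 1 to 4, at 207, 53.1, 54.8 and 24.0 CPM in stroma and at 19.0 CPM in muscle, so sarcoma 4 lacked the high level of the other 3 (sarcoma cells over stroma 2.63 ± 0.68, edgeR adjusted p = 0.124). Ccnd2 had 126, 52.3, 252 and 952 CPM in sarcoma cells, 199, 117, 230 and 1227 CPM in stroma and 133 CPM in muscle, and sarcoma 4 was the high library in both classes. E2f1, a transcription factor that RB binds, had a log2 fold change of 0.76 over stroma (edgeR adjusted p = 0.108), Cdkn3 one of 1.18 (edgeR adjusted p = 0.107) and Cdk4 one of 0.10.

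Of 18 regulators of p53, 15 were tested between sarcoma cells and stroma. None was called, with 7 higher and 0 lower at an unadjusted p under 0.05, against 14.1% and 12.8% of all genes. The named members were Npm1 (log2 fold change 0.48, edgeR adjusted p = 0.158), Ppm1d, a phosphatase that p53 itself induces (0.53, edgeR adjusted p = 0.140), Kat5 (0.45, edgeR adjusted p = 0.150), Twist1 (0.36) and Crebbp (-0.03). In cycling sarcoma cells 4 of 15 rose and none fell, against 10.7% of all genes in each direction. Those that rose were the checkpoint kinase genes Chek2 (3.08), Chek1 (2.34), Atm (0.49) and Atr (0.45). Trp63 and Trp73 did not pass the filter on low counts, and Cop1 was not analysed here.

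Among 27 tested other targets of p53 none was called between sarcoma cells and stroma, with 4 higher and 4 lower at an unadjusted p under 0.05, near the 14.1% and 12.8% of all genes, and a median log2 fold change of 0.04. They did not share a direction. Rrm2b, a p53-induced subunit of ribonucleotide reductase, had 27.2, 28.6, 37.3 and 29.7 CPM in sarcoma cells of sarcomas 1 to 4, 14.9, 11.9, 19.3 and 21.9 CPM in stroma and 22.8 CPM in muscle (0.89 ± 0.16, edgeR adjusted p = 0.0817). Plk2, a kinase gene also induced by p53, had 1.81, 0.873, 4.11 and 7.29 CPM in sarcoma cells, 19.1, 20.1, 27.5 and 22.6 CPM in stroma and 20.1 CPM in muscle (-3.07 ± 0.55, edgeR adjusted p = 0.0837). Rrm2b was above stroma and Plk2 below it in every library. Phlda3 (-0.81, edgeR adjusted p = 0.241), Btg2 (0.51) and Rps27l (0.43, edgeR adjusted p = 0.203) were the others named. In cycling sarcoma cells 2 of the 27 fell, Btg2 (-0.68) and Plk3 (-0.65), and 0 rose, which is below the 10.7% of all genes called in each direction.

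The Polycomb proteins, which repress the Cdkn2a locus in many cell types, and the demethylases that oppose them were also read. Of 14 such genes none was called between sarcoma cells and stroma, and 2 were higher at an unadjusted p under 0.05, the same share as the 14.1% of all genes. Suz12, a core subunit of PRC2, had a log2 fold change of 0.71 (edgeR adjusted p = 0.0977), Kdm6a one of 0.41, Rnf2 one of 0.23 and Kdm6b one of -0.13. In cycling cells the PRC2 genes Ezh2 (2.19), Suz12 (0.70) and Eed (0.32) rose, and Ezh1 (-0.61), Kdm6b (-0.40), Cbx7 (-0.89) and Ring1 (-0.53) fell, which is 3 and 4 of 14 genes, against 10.7% of all genes in each direction. Of the 15 dissociation-response genes 0 were called between sarcoma cells and stroma, with 6 lower at an unadjusted p under 0.05 (12.8% of all genes were), among them Ier3 (-1.60, edgeR adjusted p = 0.0903) and Dnajb1 (-0.96, edgeR adjusted p = 0.0701). Fos (-0.96), Jun (-0.39) and Hspa1b (-0.24) were the most abundant. In cycling cells 8 of the 15 fell and 0 rose, against 10.7% of all genes in each direction.

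For Cdkn2a, Cdkn1a and Cdkn2b, each on its own, the genes whose levels followed it most closely were found over the 9 sums of sarcoma cells, stroma and muscle. The measure was Pearson's r of log2(CPM + 1), among 10544 genes of at least 10 CPM in 1 sum. For Cdkn2a they were Ola1 (r = 0.991), Cul4b (0.985) and Thyn1 (0.980). For Cdkn1a they were Ckb (0.968), Nup62 (0.962) and Scaper (0.961). For Cdkn2b they were Csnk1a1 (0.940), Grhpr (0.935) and Marcksl1 (0.895). Pairs of sums share a library, so these values describe the 9 sums only. The muscle sum of Cdkn2a, at 0.348 CPM, lay far below its other sums, and r was not computed without it.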

How the data were processed

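Each library was deposited as raw counts of UMIs per gene and barcode, from alignments to mm10 (per the submitters' processing notes) by Cell Ranger version 6.0.1 (per the file headers). Settings of cell calling were not given in the sources used. Kept cells had at least 500 genes and at most 10% mitochondrial UMIs, and held 63300999 to 211830490 UMIs a library. No doublet caller was run. UMIs were summed per library and class and tested with edgeR 4.0.16 (quasi-likelihood, TMM, filterByExpr, Benjamini-Hochberg at 0.05, R 4.3.3), with DESeq2 1.42.0 and limma-voom 3.58.1 as alternatives. Classes of 1 library were paired by a library block. Levels are CPM. Intervals are exact at 95% (Poisson for levels, binomial for shares) and cover counting error only. Cells were thinned to 5000 UMIs for shares, and 0.5 was added to each count of an odds ratio. Genes were named as members, by the highest mean CPM (3 a list) or smallest p against stroma (2 a list), and by likeness (3 a gene). Cycling-cell genes named from the lists were chosen after their values were seen. Members and lists were chosen with earlier results of these data known. Positions come from the mm10 gene annotation. Testing steps were tested on simulated data. Other software was matplotlib 3.10.9, pandas 2.3.3, scipy 1.17.1 and numpy 2.4.6 in Python 3.11.15.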

Additional observations from a re-analysis of the deposited data

Results flagged for a closer look

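Of 30 groups of 4 sarcoma libraries examined for a library far from the others, 2 were found, both for Cdkn2c and both in sarcoma 3, where chance gives about 1 in 20 groups. In sarcoma cells Cdkn2c stood at 98.7 CPM in sarcoma 3, and the gap to the next library was 0.935 of the range. Over whole libraries it stood at 83.8 CPM in sarcoma 3, with a gap of 0.914 of the range. The second value contains the cells of the first.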

How the results depend on the processing

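The 1 muscle library, 79 stroma cells in sarcoma 4 and the split of cells by a few UMIs limit the results. In muscle Cdkn2a rests on 22 UMIs. Counts of genes called over all genes moved as follows. Sarcoma cells against muscle gave 0 with edgeR, 1933 with DESeq2 and 199 with limma-voom. Stroma against muscle gave 0, and 557 with DESeq2, 8 on thinned cells, 2 against muscle cells of the stroma gate, 62 with the Smarcb1-positive gate and 0 to 168 leaving out 1 sarcoma. Sarcoma cells against stroma gave 158, and 3212 with DESeq2, 1076 with limma-voom, 411 on thinned cells, 538 with a stroma gate of 8 UMIs, 1157 with the Smarcb1-positive gate, 36 with no replicate block and 0 to 1560 leaving out 1 sarcoma. Whole sarcoma libraries against muscle gave 0 with edgeR (1715 at an unadjusted p under 0.05), 1172 with DESeq2 and 0 with limma-voom. Cycling against non-cycling cells gave 2893, and 1912 on thinned cells, 442 with no replicate block and 1134 to 2640 leaving out 1 sarcoma. Without the library block the 4 called genes had edgeR adjusted p between 0.217 and 0.646. Scaling by library size gave 1749 higher and 864 lower in cycling cells, in place of 1443 and 1450.

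Directions that reversed were of genes that had not passed. For stroma against muscle, Cdkn1a was 0.13 with the Smarcb1-positive gate. Cdkn1b was 0.026 with DESeq2, 0.063 on thinned cells, 0.13 with a stroma gate of 8 UMIs, 0.0084 without mural and endothelial muscle cells, 0.12 against muscle cells of the stroma gate and -0.088 to 0.022 leaving out 1 sarcoma, and Bbc3 was -0.40 to 0.081 leaving out 1 sarcoma. For sarcoma cells against stroma, Cdkn2b was 0.60 with limma-voom, 0.092 on thinned cells and -0.76 to 0.22 leaving out 1 sarcoma, and Cdkn2c was -0.14 to 0.34 leaving out 1 sarcoma. In cycling cells, leaving out 1 sarcoma gave -0.22 to 0.017 for Cdkn2a, -0.21 to 0.032 for Mdm2, -0.049 to 0.18 for Cdkn1a and -0.11 to 0.085 for Ccng1. Cdkn1a was -0.031 without the 6% of cells with the most UMIs and -0.041 on thinned cells. Ccng1 was 0.030 with limma-voom, 0.055 with library size scaling, 0.020 on thinned cells and 0.0041 with no replicate block. The cause was not tested. Over the alternatives run for the 10 genes in cycling cells, 116 values kept direction and side of the threshold, 12 no longer passed and 1 newly passed (Bax without sarcoma 4, 0.34, edgeR adjusted p = 0.0365). For sarcoma cells against stroma 141 were kept and 15 newly passed, for sarcoma cells against muscle 146 and 4, for stroma against muscle 137 and 3, and for whole libraries against muscle 106 and 4.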

Other observations

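Cells outside both gates held Cdkn2a at 209, 50.6, 171 and 112 CPM in sarcomas 1 to 4 and Cdkn1a at 390, 233, 601 and 326 CPM, against 193, 78.5, 151 and 115 CPM of Cdkn2a and 282, 348, 607 and 351 CPM of Cdkn1a in sarcoma cells. Cells that met both gates held Cdkn2a at 176, 15.7, 89.7 and 132 CPM. A mural gate, with at least 4 UMIs of 5 mural genes, held 262, 174, 814 and 98 cells in sarcomas 1 to 4. Cdkn2a stood at 124, 46.5, 24.5 and 68.8 CPM there and at 0.259 CPM in the muscle cells of the same gate.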
